A study of Mus musculus with 6 samples.

Results

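The myosin genes comprise actin-based motor heavy chains, the light chains that bind them and the kinases that phosphorylate the light chains. They were taken from the authors' deposited Cuffdiff table of mouse testis as the rows whose gene symbol is Myo, Myh, Myl or Mylk followed by a number and at most 1 letter, together with Mylk and Mylpf. This gave 55 of the 55331 genes in the table. Polyadenylated RNA had been prepared from whole testes at postnatal day 35, with 3 control libraries (labelled WT, genotype Ptbp1fl/fl with no Cre listed) and 3 Ptbp1_cKO libraries (labelled KO, Ptbp1fl/fl; Amh-Cre+/-), all of mixed strain. Both groups thus carried floxed Ptbp1, a gene for an RNA-binding regulator of alternative splicing. They differed in Amh-Cre, a recombinase driven in Sertoli cells, the somatic cells that enclose and support germ cells. No group carried the Cre without floxed alleles, so the deletion and the transgene cannot be told apart. The study addressed the part of PTBP1 in the actin cytoskeleton of Sertoli cells.

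Each value is the authors' FPKM for a group, that is, fragments per kilobase of transcript scaled to library size, with the 3 libraries combined, so levels can be set side by side between genes but no SD exists. A gene was called when Cuffdiff's q was under 0.05. The labels do not say whether the libraries came from separate animals, and the p-values speak only for these libraries. Low values moved in steps of single fragments, from which a gene of 1 kb effective length at 1 FPKM rested on about 226 fragments in all control libraries and 204 in all Ptbp1_cKO libraries. At that length 3 fragments in a single library weigh no more than 0.0151 FPKM (control) or 0.0153 FPKM (Ptbp1_cKO), for counting error only. Summed FPKM was 1818 in control and 2187 in Ptbp1_cKO for 16 Sertoli cell markers, 14 with a higher value and 2 with a lower one. Clu, called higher at 853.6 and 1199 FPKM, held most of the difference between these 2 sums. For 7 Leydig cell markers the sums were 1125 and 1397 (3 with a higher value and 4 with a lower one). Insl3, called higher at 749.6 and 1049 FPKM, held most of the Leydig cell sum. Summed FPKM was 174.4 and 221.5 for 7 stromal markers (Col1a1 and Dcn called). It was 8.30 and 9.72 for 6 endothelial markers, none called and 1 with an unadjusted p under 0.05 by Cuffdiff. For 8 epididymis markers it was 2.38 and 8.53, and of 4 tested 2 had a higher and 2 a lower value. The higher ones were Crisp1, called at 0.0482 and 5.90 FPKM, and Adam7, not called at 0.00142 and 0.323 FPKM. The lower ones were Rnase10 at 1.984 and 1.975 FPKM and Cst11 at 0.287 and 0.185 FPKM. Lcn5 was at 0 in control and Lcn8 at 0 in both groups. A part of epididymal tissue in these values was not tested. Of 7 tested elongating spermatid genes 6 had a higher value, none was called and 2 had an unadjusted p under 0.05 by Cuffdiff. Of the marker lists checked, all 16 Sertoli cell genes, all 8 spermatocyte genes and all 7 round spermatid genes reached 0.1 FPKM.

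Myosin motors use ATP to move along actin filaments. In class II myosins, 2 heavy chains pair through a long tail, and each binds an essential and a regulatory light chain. In smooth muscle and nonmuscle cells, phosphorylation of the regulatory light chain by myosin light chain kinase and other kinases starts contraction, and myosin phosphatase ends it. Unconventional myosins carry cargo, tether membranes or shape actin-rich protrusions. In the testis, contractile class II myosin is known from peritubular myoid cells around the tubules, and actin-rich junctions in Sertoli cells hold the spermatids.

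Of the 55 genes, 35 reached 1 FPKM or more in either group and 49 were tested by Cuffdiff. Myh15, a heavy chain related to those of striated muscle, was the single gene called, and it was lower in Ptbp1_cKO. None was called higher. Over all 22048 tested genes, 0.703% were called lower and 0.458% higher in the authors' deposited table, and a count of 1 among 49 is not read as a result about the members as a group. At an unadjusted p under 0.05, Myh15 and Myh1 passed, 2 of 49, against 8.98% of all tested genes (4.38% higher and 4.59% lower). At q under 0.1 the members' counts were 0 higher and 1 lower, against 0.835% and 1.07% of all tested genes. Adjusted over genes at 1 FPKM or more they were again 0 and 1, against 0.633% and 0.981%. With a normal p from the statistic in place of Cuffdiff's own, they were 0 and 0, against 0.0409% and 0.0454%. The FPKM was higher in Ptbp1_cKO for 24 tested members and lower for 25. On the log2(FPKM + 1) scale the median of Ptbp1_cKO minus control was -0.003 over the 49 members, and 0.004 over all tested genes. Among the 35 members at that level the median size of the log2 fold change was 0.13, the same to 2 decimals as the 0.13 of all 15793 such genes. The plot of change against level shows the members among the other genes of like level.

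**Figure D1:**
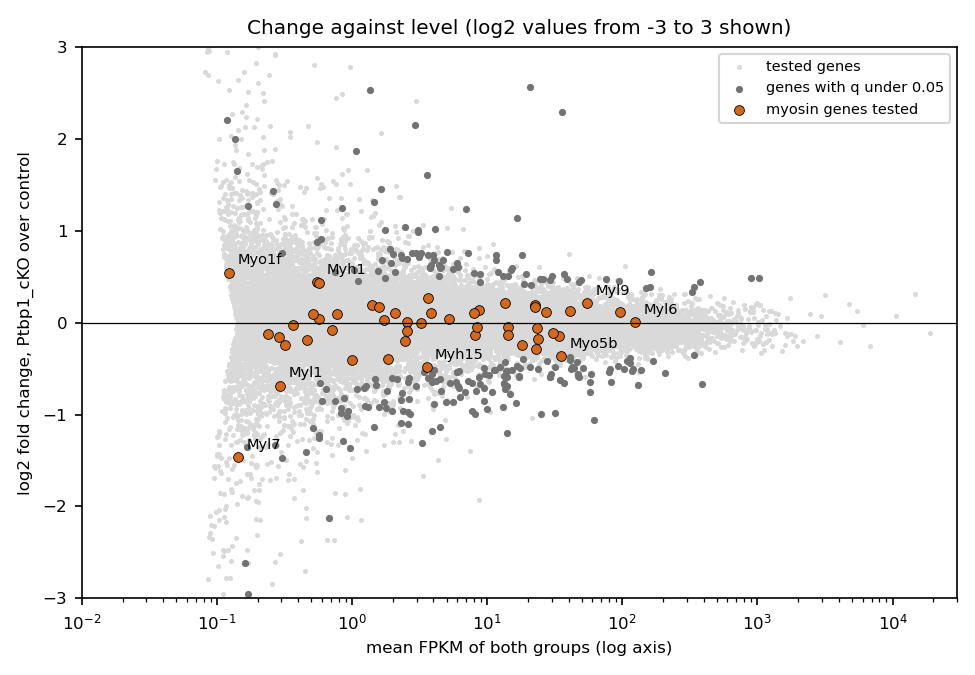
The log2 fold change (Ptbp1_cKO over control) as deposited (vertical axis) against the mean FPKM of both groups (horizontal log axis) for tested genes above 0 in both groups; light grey points are all such genes, dark grey points those with q under 0.05 and orange points the 49 tested myosin genes. The myosin genes with a mean above 1 FPKM stay within 0.5 of 0 on the log2 scale, with Myh15 the lowest of them at -0.48.

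Myh15 (ENSMUSG00000092009.1, chromosome 16, 49057486 to 49199104, mm10, forward strand) has 1 annotated transcript of 6340 bases in 41 exons. Its FPKM was 4.16 in control and 2.98 in Ptbp1_cKO. The Ptbp1_cKO value was thus 0.717 times that of control. The log2 fold change was -0.48, Cuffdiff q = 0.00848 by the authors' deposited table. At the length of that transcript these values stand for about 5717 and 3696 fragments, so counting error is small beside the difference, while the spread between libraries is not known. No other gene has exons that overlap those of Myh15, and no other transcript of the annotation matched it at 95% identity over 80% of its length. Its p of 5e-05 is the smallest in the authors' deposited table, shared by 130 genes. Its statistic of -2.19, read against a normal distribution in place of Cuffdiff's own p and adjusted by the Benjamini-Hochberg method, gave 0.99995. The call ended there, as did most calls, with 9 genes called higher and 10 lower against 101 and 155 by the deposited q. Whether the deposited statistic follows a normal distribution was not tested, so that setting cannot decide on the call of Myh15. Of the 91 tested genes whose statistic lay within 0.1 of that of Myh15 in size, 75 were called in the authors' deposited table, both counts including Myh15.

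**Figure D2:**
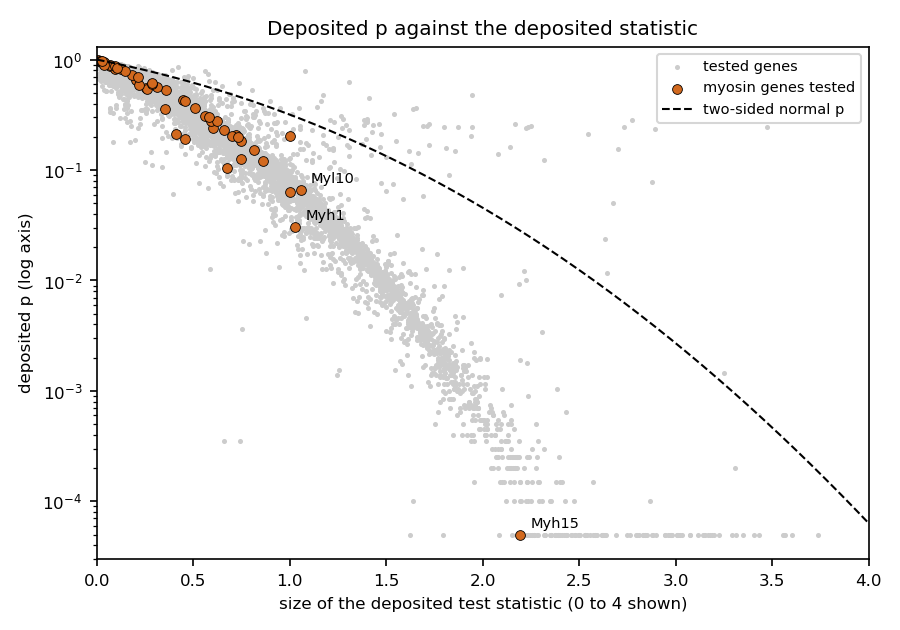
Deposited p (vertical log axis) against the size of the deposited test statistic (horizontal axis, 0 to 4 shown) for tested genes, with the 49 tested myosin genes in orange and the two-sided normal p as a dashed line. The deposited p of nearly all genes lies below the dashed line, and Myh15 sits at the smallest deposited p.

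Of the germ cell marker lists, the sums of spermatocyte and round spermatid genes were lower in Ptbp1_cKO. That of elongating spermatid genes was higher (51190 FPKM in control and 54290 in Ptbp1_cKO). Prm2 entered the elongating spermatid sum at 0 FPKM in both groups, because Cuffdiff gave it status HIDATA and no value. In that sum Prm1 stood at 13135 and 16362 FPKM, while Tnp1 stood lower in Ptbp1_cKO, at 19773 and 18244 FPKM. The part of germ cells in the fall of Myh15 was not tested. The summed FPKM of 7 round spermatid genes was 1588 in control and 1465 in Ptbp1_cKO, with a lower value for all 7, and that of 8 spermatocyte genes was 886.8 and 810.1, with a lower value for 7. None of these genes passed Cuffdiff's threshold, while 2 of the round spermatid genes had an unadjusted p under 0.05. The round spermatid and spermatocyte sums stood at 0.923 and 0.914 times control. In whole tissue, fewer cells of a type and less RNA per cell cannot be told apart.

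The tested genes on either side of Myh15 were not called. Its upstream neighbours Dzip3, a ubiquitin ligase, and Cip2a, an inhibitor of protein phosphatase 2A, stood at 11.8 and 11.04 FPKM and at 14.3 and 12.3 FPKM. The non-coding 1700026J12Rik downstream stood at 31.8 and 29.1 FPKM. Within 1000 kb, 1 other gene was called lower, the processed pseudogene Gm7275, which starts at -984 kb from the Myh15 start. It stood at 12.2 FPKM in control and 8.24 in Ptbp1_cKO, Cuffdiff q = 0.0202 by the authors' deposited table. The pseudogene Gm5407 stood at 1.38 and 0.941 FPKM with Cuffdiff q = 0.391 by that table, and Ift57, a gene of transport along the flagellum, at 117.5 and 100.03 FPKM. The plot of neighbours shows 7 of the 9 other tested genes below 0, while 10821 of all 22048 tested genes had a lower value. Among these 9, Dppa4 stood at 2.08 and 1.49 FPKM (Cuffdiff q = 0.999 by that table), and Morc1 and Cd47 stood higher in Ptbp1_cKO. The count among so few genes is not read as a result about the region.

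**Figure D3:**
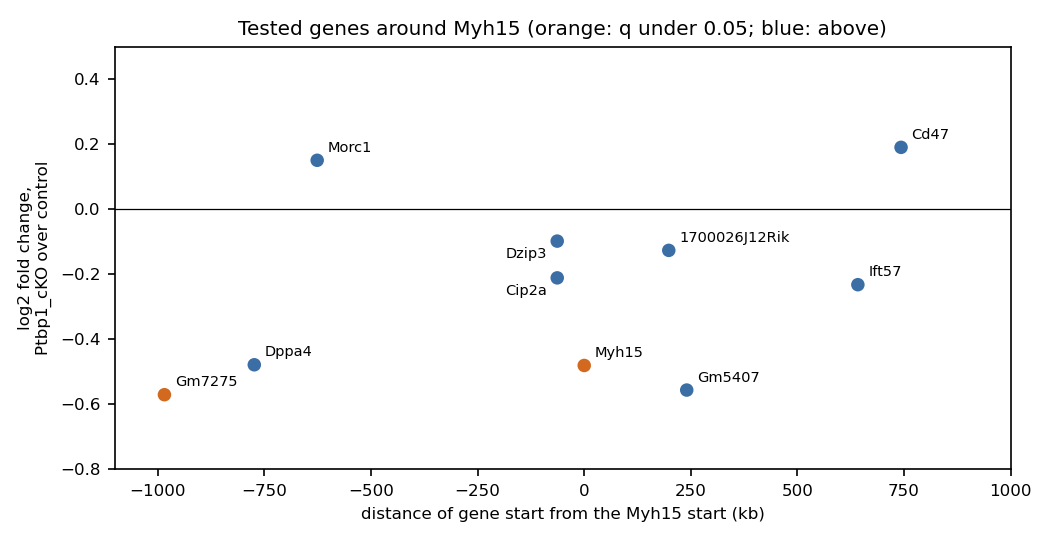
The log2 fold change (Ptbp1_cKO over control) as deposited for tested genes around Myh15 (vertical axis) against the distance of each gene's start from the Myh15 start (horizontal axis, kb); orange points have q under 0.05, blue points do not. Myh15 and Gm7275 are the 2 called genes, and both are lower in Ptbp1_cKO.

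The sequence before the RefSeq start of Myh15 is shown because this gene carried the call. RefSeq gives 1 window for it, with a start shortly before the annotated one given above, and the 250 bases before that start lie at chr16:49057150-49057399 (GRCm38.p6, the build also known as mm10, forward strand).
Myh15: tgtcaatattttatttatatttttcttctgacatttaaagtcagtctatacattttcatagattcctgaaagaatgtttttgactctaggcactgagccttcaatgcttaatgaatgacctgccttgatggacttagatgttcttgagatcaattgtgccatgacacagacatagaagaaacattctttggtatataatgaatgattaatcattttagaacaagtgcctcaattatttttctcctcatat
It holds no CG dinucleotide, and 31.2% of its bases are G or C. Over the full window of 300 bases, from 250 before to 50 after the start, 5.43% of all 32851 RefSeq windows lack CG, and the 33.7% of G and C in Myh15 is matched or undercut by 2.86% of them. Among 60 windows of 48 members, that of Myh15 was the only one without CG. The table bears on the level of the transcript and not on binding to this sequence.

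The other heavy chains of striated muscle build sarcomeres in skeletal and cardiac muscle, and their levels in testis were low. Myh7, of slow skeletal and ventricular muscle, stood at 2.64 FPKM in control and 2.48 in Ptbp1_cKO. Myh6, of atrial muscle, stood at 2.10 and 1.60 FPKM (Cuffdiff q = 0.998 by the authors' deposited table). Their transcripts share 91.8% identity over 94.8% of Myh6, so their fragments may be divided unevenly between them, and 3 antisense genes share exon sequence with Myh7, each with an FPKM of at most 0.0325. Neither gene passed the test.

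Myh1, of fast skeletal muscle, stood at 0.482 FPKM in control and 0.652 in Ptbp1_cKO. It was 1.35 times higher at p = 0.0307 before adjustment but Cuffdiff q = 0.446 by the authors' deposited table, so it was not called. Myh1 lies with 5 other skeletal heavy chains in a row on chromosome 11, between 67078300 and 67371586. Of these, the extraocular gene Myh13 stood at 0.563 and 0.577 FPKM and the embryonic gene Myh3 at 0.369 and 0.363 FPKM. The fast genes Myh2 and Myh4 and the perinatal gene Myh8 stayed between 0.0147 and 0.0311 FPKM in both groups and were not tested. Transcripts of Myh1 share 90.8% identity with Myh2 and 89.97% with Myh4. The row thus held genes near 0.5 FPKM next to genes at 0.0311 FPKM or less, all close in sequence and position. The antisense gene Myhas overlaps 8.11% of the exon sequence of Myh1, and stood at 0.0220 and 0.00808 FPKM. Myh7b, which also hosts a muscle microRNA, stood at 0.496 and 0.530 FPKM.

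Other markers of striated muscle differed in level. The summed FPKM of 14 skeletal muscle genes was 15.0 in control and 15.8 in Ptbp1_cKO, of which Actn3 and Casq1 held most. Of these genes 11 were tested, and none was called. Skeletal actin, Acta1, stood at 0.0275 and 0.0584 FPKM and Pvalb at 0.0111 and 0.0140 FPKM. Of 7 cardiac muscle genes Tnni3, at 47.2 and 47.8 FPKM, held most of the sum of 54.6 and 55.5 FPKM, followed by Tnnt2 at 6.86 and 7.24 FPKM, while Actc1 and Mybpc3 stayed under 0.1 FPKM and Nppa was listed at 0 in Ptbp1_cKO. None of the 4 tested cardiac genes was called, and none had an unadjusted p under 0.05 by Cuffdiff.

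Among the nonmuscle heavy chains, which drive cytokinesis and cortical tension, Myh10 was by far the highest. Myh10, the IIB chain, stood at 35.6 FPKM in control and 32.3 in Ptbp1_cKO (Cuffdiff q = 0.855 by the authors' deposited table). Myh9, the IIA chain, stood at 3.70 and 3.97 FPKM, and Myh14, the IIC chain, at 1.13 and 0.855 FPKM. Myh10 therefore held 88.1% of the nonmuscle heavy chain FPKM in control and 86.98% in Ptbp1_cKO. No member of this group was called, and Myh14 had the lowest ratio, 0.754, with Cuffdiff q = 0.76 by the authors' deposited table.

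Smooth muscle myosin was measured through its heavy chain Myh11, its regulatory light chain Myl9 and the kinase Mylk, all known from contractile cells. Myh11 stood at 8.27 FPKM in control and 9.11 in Ptbp1_cKO. Myl9 stood at 50.9 and 59.1 FPKM, and Mylk at 12.5 and 14.5 FPKM. The values in Ptbp1_cKO were 1.10, 1.16 and 1.16 times those in control, with q = 0.879, q = 0.751 and Cuffdiff q = 0.943 by the authors' deposited table, so none passed. Values of peritubular myoid cell markers stood beside these, and their part was not tested: the summed FPKM of 10 genes was 202.4 and 224.7, with a higher value for 7, and none passed Cuffdiff's threshold at q or at an unadjusted p under 0.05. Smooth muscle actins led that list, with Actg2 at 136.5 and 154.4 FPKM and Acta2 at 31.1 and 36.1 FPKM. Actg2 held most of the sum in both groups, so the sum mainly reflects that gene.

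The nonmuscle regulatory light chains were abundant. Myl12b (chromosome 17, 70973133 to 70990890) stood at 91.9 FPKM in control and 99.4 in Ptbp1_cKO, and Myl12a at 21.1 and 24.2 FPKM. Their values are uncertain, because both genes share a deposited locus with Gm49909, which spans them on the same strand. Gm49909 stood at 32.4 and 34.03 FPKM. A shared deposited locus was not particular to this pair, as 33 of the 55 members had one. Exons of Gm49909 overlap 26.7% of the exon sequence of Myl12b and 13.8% of that of Myl12a. A transcript named Myl12b in the annotation is 96.9% identical to Myl12a over 33.4% of the Myl12a transcript. The annotation gives that name to Gm49909 as well, so the match may be to either gene. With q = 0.999 for both members in the authors' deposited table, neither was called.

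Light chains of other tissues were also present in testis. Myl10, a regulatory light chain, stood at 25.4 FPKM in control and 20.8 in Ptbp1_cKO. That ratio of 0.818 had p = 0.0663 before adjustment and Cuffdiff q = 0.619 by the authors' deposited table. Mylpf, of fast skeletal muscle, stood at 2.02 and 2.17 FPKM. The ventricular Myl2 stood at 0.729 and 0.688 FPKM, and 3.08% of its exon sequence overlaps Ccdc63 on the opposite strand, a gene at 314.3 and 293.0 FPKM. The atrial Myl7 had the largest log2 difference of any tested member, -1.47, at 0.212 and 0.0767 FPKM. It rested on about 16 and 5 fragments for its transcript of 590 bases and was not called (Cuffdiff q = 0.873 by the authors' deposited table).

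Essential light chains stiffen the lever arm of the motor. Myl6, the form of smooth muscle and nonmuscle cells, was the most abundant of all 55 genes, at 124.2 FPKM in control and 124.6 in Ptbp1_cKO, with Cuffdiff q = 0.999 by the authors' deposited table. Myl4, the atrial and embryonic form, stood at 25.4 and 22.5 FPKM and Myl6b at 21.4 and 24.05 FPKM. The skeletal Myl1 stood at 0.364 and 0.226 FPKM and the ventricular and slow skeletal Myl3 at 0.305 and 0.273 FPKM. None of the 5 passed, and their summed FPKM was 171.7 in both groups.

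Summed over subunits, light chain transcripts exceeded those of class II heavy chains in both groups. The regulatory light chains summed to 192.3 FPKM in control and 206.4 in Ptbp1_cKO, of which Myl12b held 47.8% and 48.2%. All class II heavy chains summed to 59.6 and 55.5 FPKM. The 12 light chains together stood at 6.11 times the 14 heavy chains in control and at 6.82 times in Ptbp1_cKO. These ratios have no error, since each sum rests on 1 value per group, and transcript levels do not give protein levels.

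**Figure D4:**
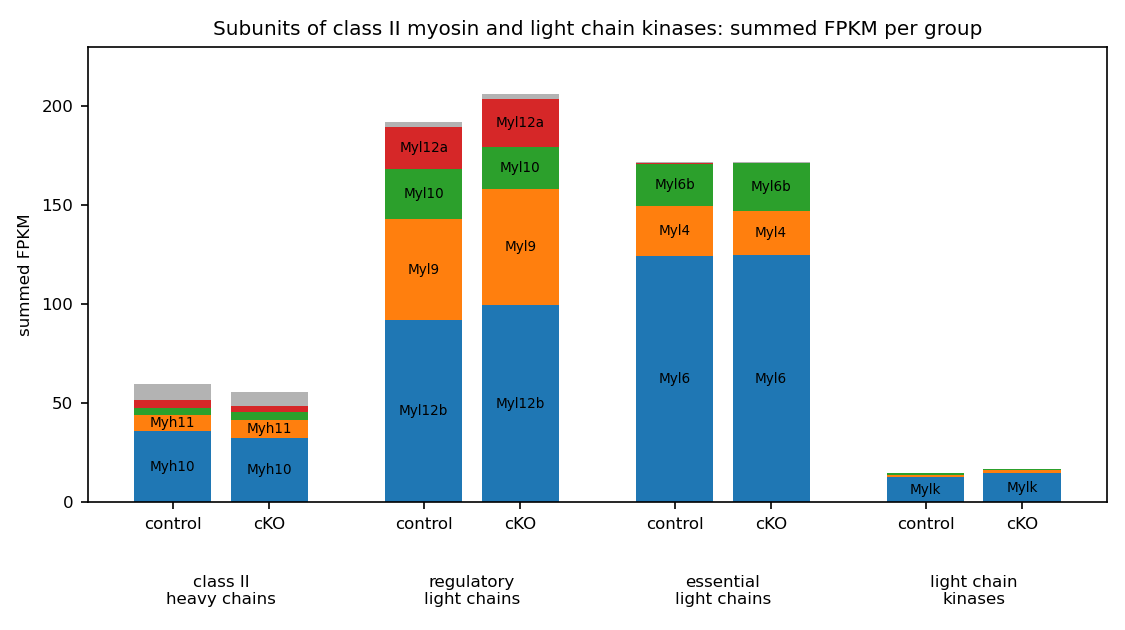
Summed FPKM (vertical axis, from 0) of class II heavy chains, regulatory light chains, essential light chains and light chain kinases in control and Ptbp1_cKO (cKO); colours mark the 4 members with the highest mean in each class and grey the rest, with names where a segment exceeds 7 FPKM. Regulatory light chains sum to 192.3 and 206.4 FPKM, and essential light chains to 171.7 in both groups.

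The light chain kinases were led by Mylk, described above, which held 85.8% of their FPKM in control. Mylk3, the cardiac kinase, stood at 1.31 and 1.49 FPKM, and Mylk4 at 0.754 and 0.805 FPKM. The skeletal kinase Mylk2 stood at 0.00472 and 0.00549 FPKM, about 3 fragments in each group, and was not tested. None of the 3 tested kinases was called, and all 3 had a higher value in Ptbp1_cKO.

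Class V myosins carry vesicles and organelles. Myo5b, which moves recycling endosomes with RAB11, was the most abundant of them, at 39.9 FPKM in control and 30.9 in Ptbp1_cKO. Its ratio of 0.775 was not called (p = 0.202, Cuffdiff q = 0.870 by the authors' deposited table). Myo5a, known from melanosome transport, stood at 8.57 and 8.30 FPKM, and Myo5c, of secretory epithelia, at 0.464 and 0.633 FPKM (p = 0.063, Cuffdiff q = 0.607 by the authors' deposited table). Myo6, the motor that moves towards the minus end of actin and is known from endocytosis and spermatid individualisation in flies, stood at 19.6 and 16.5 FPKM and was not called (Cuffdiff q = 0.942 by the authors' deposited table).

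Class I myosins link membranes to actin as single-headed motors. Myo1c was the highest, at 15.0 FPKM in control and 13.7 in Ptbp1_cKO, followed by Myo1a, known from the intestinal brush border, at 8.52 and 7.78 FPKM. Myo1d stood at 2.527 and 2.534 FPKM and Myo1e, known from kidney podocytes, at 2.63 and 2.29 FPKM. None passed the test. Myo1h stood at 1.71 and 1.74 FPKM, but 25.8% of its exon sequence overlaps Kctd10 on the opposite strand, a gene at 20.5 and 17.98 FPKM, so its value is uncertain.

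The leukocyte myosins Myo1f and Myo1g were near the lower end. Myo1f stood at 0.1005 FPKM in control and 0.146 in Ptbp1_cKO (Cuffdiff q = 0.882 by the authors' deposited table), and Myo1g, which was not tested, at 0.0640 and 0.126 FPKM. The summed FPKM of 11 leukocyte markers was 56.6 and 77.3, with a higher value for all 11 and 2 called higher, C1qb and Fcer1g. The part of leukocytes in the values of Myo1f and Myo1g was not tested.

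Myosins with MyTH4 and FERM domains bind membranes and microtubules and build protrusions. Myo7a, known from the stereocilia of the inner ear, stood at 39.1 FPKM in control and 42.5 in Ptbp1_cKO and had the highest mean of both groups among the unconventional myosins, although Myo5b stood above it in control (Cuffdiff q = 0.999 by the authors' deposited table). Myo10, the motor of filopodia, stood at 23.6 and 22.8 FPKM. Myo15b stood at 3.24 and 3.23 FPKM, and Myo15, also of stereocilia, at 1.49 and 1.68 FPKM. Myo7b, of the brush border, stood at 0.251 and 0.230 FPKM. None of the 5 was called.

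The other unconventional myosins held 3 abundant genes. Myo9a, whose tail holds a GTPase-activating domain, stood at 31.9 FPKM in control and 29.6 in Ptbp1_cKO, and its relative Myo9b at 5.17 and 5.31 FPKM. Myo18b, known from sarcomere assembly, stood at 26.3 and 28.5 FPKM. Exon sequence of Myo18b overlaps an antisense transcript, 1700095B10Rik, over 2.32% of its length, at 43.2 and 41.5 FPKM. Myo18a, of the Golgi apparatus, stood at 14.5 and 14.03 FPKM, and Myo19, the motor of mitochondria, at 7.76 and 8.33 FPKM. None of these passed, and the remaining 3, Myo3a, Myo16 and Myo3b, stayed between 0.0962 and 0.497 FPKM.

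**Figure D5:**
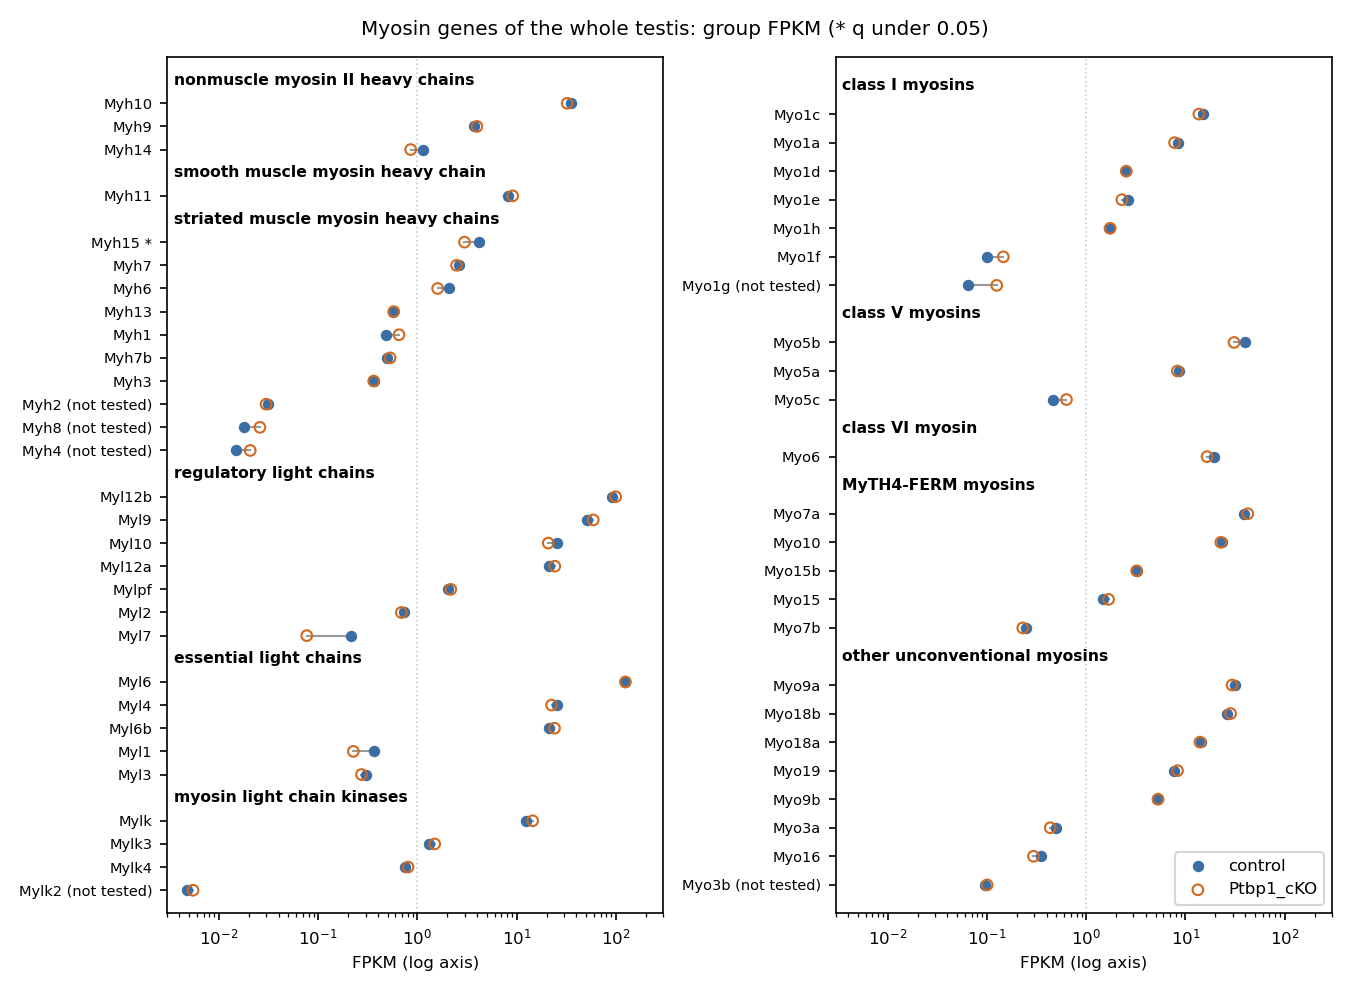
FPKM (horizontal log axis) of the myosin genes described here by role, filled blue for control and open orange for Ptbp1_cKO, joined by a line; an asterisk marks q under 0.05 and the dotted line 1 FPKM. Myl6 is the highest gene at 124.2 and 124.6 FPKM, Mylk2 the lowest at 0.00472 and 0.00549 FPKM, and Myh15 alone carries an asterisk.

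Other genes of the pathway were followed through 51 genes in 5 lists, of which 48 were tested. One was called higher, Ppp1r14a, and none lower, against 0.458% and 0.703% of all tested genes, and 4 had an unadjusted p under 0.05 by Cuffdiff, against 8.98%. The count at an unadjusted p is near its share, and a single call is not read as a result about the pathway. Their median difference of log2(FPKM + 1) was 0.03, against 0.004 over all tested genes. Ppp1r14a encodes an inhibitor of myosin phosphatase that is abundant in smooth muscle. It stood at 3.47 FPKM in control and 5.35 in Ptbp1_cKO, its log2 fold change being 0.62, Cuffdiff q = 0.0474 by the authors' deposited table. It was not called with the normal p from its statistic (0.99995 after adjustment), the setting under which most calls ended. Of the 8 genes of the phosphatase list 6 were tested, and Ppp1r14a alone passed. The targeting subunit Ppp1r12a stood at 37.3 and 37.2 FPKM, the catalytic subunit Ppp1cb at 28.3 and 27.6 FPKM and the inhibitor Ppp1r14b at 117.7 and 105.8 FPKM.

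Among 19 kinases and GTPase regulators of myosin activation, none was called. Calm2, a gene of the calmodulin that serves Mylk and the unconventional heavy chains, was the highest, at 1193 FPKM in control and 1016 in Ptbp1_cKO (Cuffdiff q = 0.584 by the authors' deposited table), followed by Calm3 at 456.7 and 381.6 FPKM. The GTPase gene Rhob stood at 5.88 and 7.22 FPKM, with p = 0.0293 before adjustment and Cuffdiff q = 0.441 by the authors' deposited table. The kinases Rock1 and Rock2 stood at 18.8 and 17.2 FPKM and at 6.02 and 6.37 FPKM.

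None of 5 chaperone genes, 12 cargo adaptor genes (11 tested) or 7 genes of tropomyosins, caldesmon and actins was called. The chaperone Hsp90aa1 stood at 1684 FPKM in control and 1362 in Ptbp1_cKO (p = 0.0206, Cuffdiff q = 0.383 by the authors' deposited table) and Hsp90ab1 at 179.9 and 189.9 FPKM. Dab2, an adaptor of Myo6 in endocytosis, stood at 3.37 and 4.81 FPKM, with p = 0.00095 and Cuffdiff q = 0.0687 by the authors' deposited table, just outside the threshold. The adaptors Tax1bp1 and Optn, both partners of Myo6, stood at 155.4 and 138.8 FPKM and at 101.2 and 90.7 FPKM. Actb and Actg1, the cytoplasmic actins, stood at 281.7 and 332.4 FPKM and at 243.6 and 262.2 FPKM.

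A shared sequence feature was sought in the RefSeq windows of 48 members. The CArG box, the site bound by serum response factor in many contractile genes, was searched as its 10-base consensus, which reads the same on both strands. It was found in 7 of 60 windows, 11.7%, against 1.63% of all windows of the same length. The 7 boxes are shown in capitals with 10 bases on either side.
Myh13 (chr11:67327115-67327144, forward strand): gcagagatggCCATATTTGGagaagccgct
Myh4 (chr11:67237698-67237727, forward strand): aaagagattgCCAAAAATGGttttgccaag
Myl3 (chr9:110763583-110763612, forward strand): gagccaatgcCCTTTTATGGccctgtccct
Myl6 (chr10:128493040-128493069, reverse strand): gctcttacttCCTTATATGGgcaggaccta
Myl7 (chr11:5898824-5898853, reverse strand): ccattcctctCCTTATTTGGgcctctgggt
Myl9 (chr2:156775293-156775322, forward strand): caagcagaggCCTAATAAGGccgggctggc
Myo1e (chr9:70207308-70207337, forward strand): gctgaattctCCATTTATGGacagattgcc
The 7 genes differed in level and change. Myl6, the highest member, and Myl9 carried a box, and so did Myh4 at 0.0147 and 0.0207 FPKM and Myl7 at 0.212 and 0.0767 FPKM. Their boxes began at -50, -161, -104 and -61 relative to the start used by RefSeq, which for Myl6 is a start inside the gene. None of the 7 was called in the authors' deposited table, where Myh4 was not tested, and a match describes letters only. Myh11 and the other 6 members without a window were not searched.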

How the data were processed

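Each library came from whole testis at 35 days, made with the stranded TruSeq kit per the labels' protocols. Build mm10 and the tools STAR 2.6.1d, Trimmomatic 0.38, bcl2fastq 2.20, Cuffdiff and Cufflinks appear in the submitters' processing notes without role or setting. Library normalisation, strand setting and annotation release: not given in the sources used here. In the table the authors deposited, each gene has 1 FPKM per group, the log2 fold change (Ptbp1_cKO over control), a signed test statistic (a score, per the file headers), a p-value and a q-value.

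Calls were Cuffdiff's q under 0.05 as deposited; ratios of FPKM, sums and medians of log2(FPKM + 1) over tested genes reaching 0.1 FPKM in either group were computed in Python 3.11.15 with pandas 2.3.3. The pseudocount of 1 understates changes of low genes. Fragment weights came from single-exon genes of 1500 to 6000 bases; 100% of the 250 (control) and 272 (Ptbp1_cKO) values low enough to hold 1 fragment lay within 1% of 1 of 3 steps. Fragment numbers assume the longest transcript. The code for the normal p and the steps was tested on simulated data. The simulated statistics were drawn from a normal distribution, so this does not show that the deposited statistic follows one. Coordinates are 1-based, from GENCODE M21; 55 identifiers matched, 51 with their version. Copies were sought with BLAST 2.17.0. Promoter sequences are RefSeq's (GRCm38.p6).

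Members reaching 1 FPKM in either group or with an unadjusted p under 0.05 were named, with the highest of each role; from pathway lists those past q or unadjusted p under 0.05 and the 2 highest. The same rule was set for cell type lists, but there the text names called genes and gives the others as counts. Further genes were named after their values were seen. The values of 1 member that meets the rule are not reported here, though counts and sums include it. Members and lists were chosen with earlier results of these data known. The list symbols Myl5, Myo2 and Myo22 matched no row. Alternatives covered the source and threshold of p, the filter, the pseudocount and the centring.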

Additional observations from a re-analysis of the deposited data

How the results depend on the processing

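With the normal p from the deposited statistic, adjusted over 22020 genes, the count of members called lower went from 1 to 0. Myh15 was the member that lost its call. The count of pathway genes called higher also went from 1 to 0. Over all genes that setting called 9 higher and 10 lower, against 101 and 155 by the deposited q, so it ended most calls. At an unadjusted p under 0.05, 1 member was higher and 1 lower, and 3 pathway genes were higher and 1 lower. At q under 0.1 in the deposited values 2 pathway genes were higher, Dab2 being added, while the member counts stayed at 0 higher and 1 lower. Adjusting over genes with an FPKM of at least 1 left all 4 counts as they were. The members' median difference of -0.003 lay at -0.0039 and -0.004 with pseudocounts of 0.1 and 0.01 and did not move without a minimum FPKM, but changed sign to 0.0028 at a minimum of 1 FPKM and to 0.0013 when centred on all genes, so it has no direction. For the 36 named members, another p leaves the fold change as it is by construction and can alter the call alone, which it did for Myh15; centring shifts all genes alike by 0.005, and Myo15b, at -0.004, changed sign with that shift, to 0.0013. No replicate could be left out because the table gives 1 value per group. No paired analysis was possible because the columns carry no replicate number. Depth limits the members under 0.1 FPKM, such as Mylk2 at about 3 fragments, and an absence of calls in whole testis does not show that Sertoli cells were unchanged.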

Other observations

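Base composition before the start differed widely among the members. The 60 RefSeq windows held a median of 6 CG dinucleotides, against 7 over all windows. The letters TATAAA, searched on both strands, were found in 12 of them, 20%, against 13.6% of all windows. In the chromosome 11 row of skeletal heavy chains, Myh1, Myh2, Myh3, Myh4 and Myh8 held these letters, and Myh13, whose window lies at an internal start, did not. Levels in the same row ran from 0.0147 to 0.652 FPKM, so these letters were present at both ends of that range.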
